A study of Mus musculus with 2 samples.

Results

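Transcripts of 36 cell cycle genes were measured in the heart of an adult mouse. The 36 genes were chosen by name, not by their level, and were found by matching gene identifiers without their version to symbols. All 36 had a row in both libraries, out of 43346 Ensembl genes, and together they held 154 of 103639 Ensembl transcripts. By role they were 8 cyclins, 4 cyclin-dependent kinases, 3 inhibitors of these kinases, 2 genes of the retinoblastoma and E2F pathway (Rb1 and E2f1), 11 replication genes and 8 mitosis genes. Poly(A) RNA came from whole heart tissue of 1 female C57BL/6J mouse aged 10 weeks, with no treatment or genetic change named in the labels. The sequencing comprised 2 libraries, technical replicates 2 and 1 of that animal. Per the labels, replicate 2 dates from 2015 and had no part in the earlier publication. There was no second condition, so every spread given here is technical (n = 2 libraries) and describes this heart alone.

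Cells enter the cycle when D cyclins with CDK4 or CDK6, and then cyclin E with CDK2, phosphorylate the retinoblastoma protein, which frees E2F factors to switch on replication genes. CDK inhibitors hold these kinases back. Genes of mitosis are switched on later, and in resting cells the DREAM complex represses many of them. Cardiomyocytes of mice largely leave the cycle soon after birth, while endothelial cells, fibroblasts and leukocytes of the heart can still divide.

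Replicate 2 held 19685821 counts and replicate 1 held 22775991, of which 12654724 and 5028154 came from nuclear genes other than copies of mitochondrial DNA. Levels are therefore given as nuclear TPM, which is the deposited TPM (an abundance per unit of transcript length) rescaled to the sum of those nuclear genes alone. The deposited TPM has 2 decimals, so the smallest step was 0.026 nuclear TPM in replicate 2 and 0.14 in replicate 1. For a gene with no count the upper limit was taken as 3 counts, or 2.37e-05% of nuclear counts in replicate 2 and 5.97e-05% in replicate 1. These limits cover counting error only. The tissue label held against its markers: all 6 cardiomyocyte genes (Myh6, Tnnt2, Tnni3, Actc1, Ryr2 and Mb) were above 1 nuclear TPM in both libraries and summed to 70100 nuclear TPM in replicate 2 and 8778 in replicate 1. Endothelial markers summed to 1575 nuclear TPM in replicate 2 and 1160 in replicate 1, and fibroblast markers to 2255 and 2286. Macrophage markers summed to 236.7 nuclear TPM in replicate 2 and 20.23 in replicate 1, and mural cell markers to 759.1 and 1445. The mural sum followed Rgs5 (321.7 and 1393), while Acta2, Tagln, Pdgfrb and Cspg4 were all lower in replicate 1. The near-equal fibroblast sums held Gsn at 1295 and 55.14 and Dcn at 773.0 and 1979. None of 6 lymphocyte markers reached 1 nuclear TPM in both libraries (sums 4.32 and 3.88). Cd79b reached it in replicate 2 (1.84, from 14 counts) and Ms4a1 in replicate 1 (3.05, from 21 counts). Cd3e was at 0 in replicate 2 and had 1 count in replicate 1. Cd3d and Cd79a were at 0 in replicate 1 and had 3 and 8 counts in replicate 2. Of 6 erythroid precursor markers 2 reached 1 nuclear TPM in both libraries, Tfrc and Alas2 (sums 56.3 and 128.7), while Epor, Klf1 and Slc4a1 were at 0 in replicate 1. The part of these cell types in the levels below was not tested.

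The D cyclins, Cdk4, the inhibitors and Rb1 each had 5.68 nuclear TPM or more in both libraries, and the genes that carry out mitosis were close to the limit of detection. Not all genes of the first steps were high: Ccne1 had 1.18 nuclear TPM in replicate 2 and 0 in replicate 1, and E2f1 had 0.41 and 0.28. In replicate 2, 23 of 36 genes reached 1 nuclear TPM, where 31.0% of all nuclear genes did. In replicate 1, 22 of 36 reached it, where 28.0% of all nuclear genes did. In both libraries 18 of 36 did, against 25.8% of all 43298 nuclear genes and 49.0% of the protein-coding ones, so the 36 genes were detected about as often as protein-coding genes in general. A count of any size was found in 35 genes in replicate 2, 28 in replicate 1 and 27 in both, where 34.3% of nuclear genes had one in both. The summed level was 502.9 nuclear TPM in replicate 2 and 608.0 in replicate 1, and averaged 555.5 ± 74.3 (SD, n = 2). D cyclins, CDK4 (Cdk4), the inhibitors, Rb1 and Pcna made up most of it. In whole tissue, fewer cells of a type and less RNA per cell cannot be told apart.

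**Figure D1:**
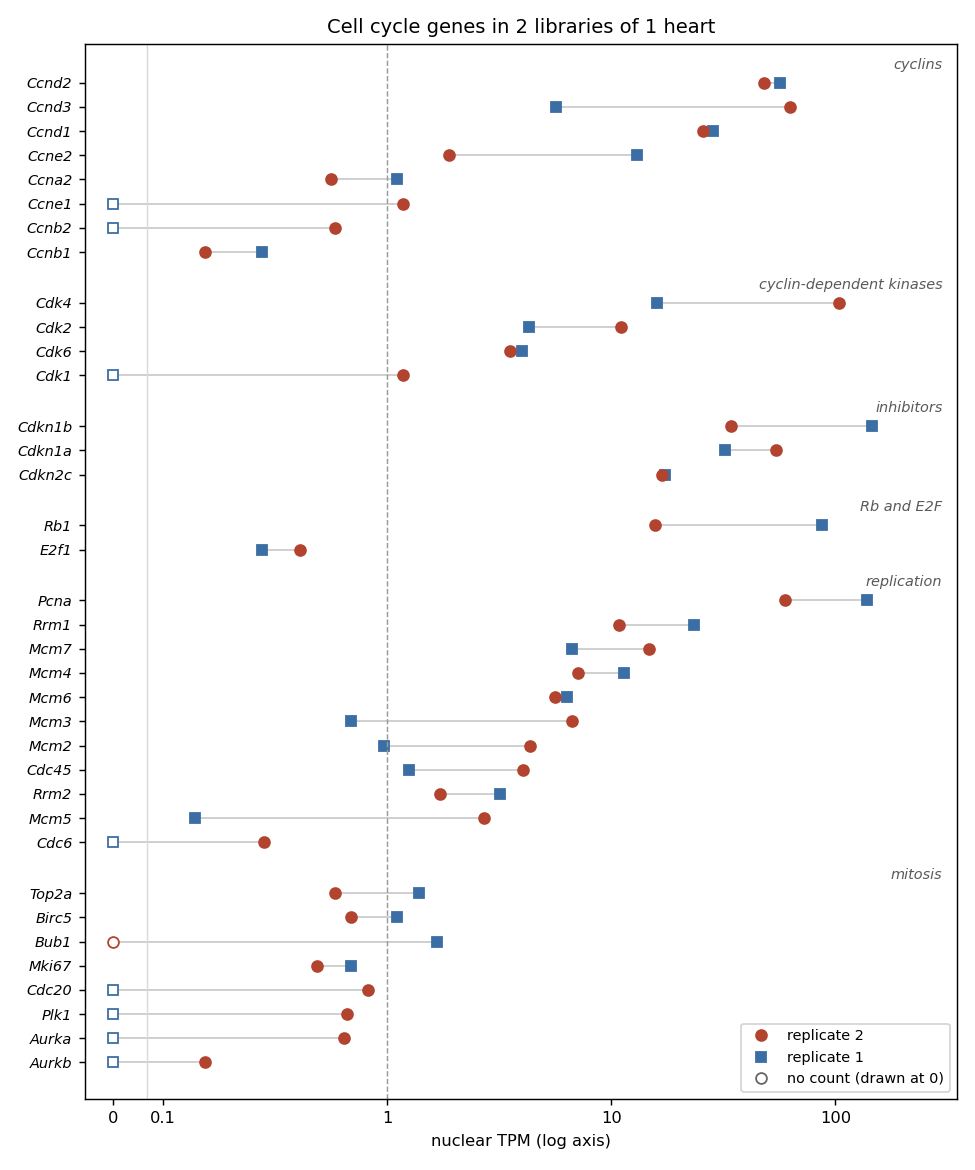
Level of each of the 36 genes in nuclear TPM on a log axis, grouped by role, with replicate 2 as circles and replicate 1 as squares, open symbols for a gene with no count and a dashed line at 1 nuclear TPM. D cyclins, inhibitors, Cdk4, Rb1 and Pcna sit above 1 nuclear TPM in both libraries, while the 8 mitosis genes at the bottom are between 0 and 1.66.

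The promoters of 4 genes are shown because the genes act from replication to the end of mitosis and their windows hold each kind of word counted here: Cdk1 and Ccnb2, the kinase and a cyclin that start mitosis, Cdc20, which ends it, and Mcm6, a subunit of the replicative helicase. Each is the RefSeq window from 250 bases before to 50 after the transcription start on GRCm38.p6, written 5′ to 3′ on the strand of the gene. Capitals mark TTTGAA or TTTAAA (the cell cycle homology region, CHR, read by the DREAM and MuvB complexes), CCAAT (the site of NF-Y), and the E2F words TTTCCCGC, TTTCGCGC, TTTGCCGC and TTTGGCGC, each searched on both strands. ATTGG in capitals is CCAAT on the other strand, and TTTAAA reads the same on both.
Cdk1, chr10:69352863-69353162, minus strand: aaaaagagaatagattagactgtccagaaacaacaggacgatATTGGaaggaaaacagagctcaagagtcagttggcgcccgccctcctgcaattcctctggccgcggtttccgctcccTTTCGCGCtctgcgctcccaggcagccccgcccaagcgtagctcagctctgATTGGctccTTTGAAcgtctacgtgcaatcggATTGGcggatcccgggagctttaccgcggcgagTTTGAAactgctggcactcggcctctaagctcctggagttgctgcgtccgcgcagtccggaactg
Ccnb2, chr9:70421505-70421804, minus strand: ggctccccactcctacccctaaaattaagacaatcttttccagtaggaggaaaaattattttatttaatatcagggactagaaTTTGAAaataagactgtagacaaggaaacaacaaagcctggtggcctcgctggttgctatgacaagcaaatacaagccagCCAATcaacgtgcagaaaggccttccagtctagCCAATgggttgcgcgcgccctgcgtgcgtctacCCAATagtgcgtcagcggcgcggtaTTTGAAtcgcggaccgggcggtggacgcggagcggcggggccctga
Cdc20, chr4:118437294-118437593, minus strand: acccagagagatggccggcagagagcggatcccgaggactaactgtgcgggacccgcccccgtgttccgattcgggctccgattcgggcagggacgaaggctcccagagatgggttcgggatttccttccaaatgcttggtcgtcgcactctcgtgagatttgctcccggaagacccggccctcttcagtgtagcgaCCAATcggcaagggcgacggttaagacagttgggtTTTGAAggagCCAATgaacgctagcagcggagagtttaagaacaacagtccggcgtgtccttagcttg
Mcm6, chr1:128359656-128359955, minus strand: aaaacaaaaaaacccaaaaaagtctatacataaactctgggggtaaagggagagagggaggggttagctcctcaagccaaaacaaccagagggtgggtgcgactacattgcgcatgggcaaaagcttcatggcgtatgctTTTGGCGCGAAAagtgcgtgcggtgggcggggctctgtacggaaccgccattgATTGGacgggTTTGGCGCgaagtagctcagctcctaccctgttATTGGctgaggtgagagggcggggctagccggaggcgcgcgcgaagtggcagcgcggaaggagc
The Cdk1 window held all 3 kinds of word, with an E2F word whose first base lay at -131 from the start, TTTGAA at -71 and -15, and CCAAT at -208, -80 and -48. The Ccnb2 window held CCAAT at -87, -54 and -21 and TTTGAA at -167 and 5. In the Cdc20 window TTTGAA stood at -18 between CCAAT at -53 and -8. The Mcm6 window had no CHR word, but had E2F words at -110, -106 and -47, the first pair of which overlap, and CCAAT at -57 and -14.

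Windows were found for 29 of the 36 genes (33 windows); Aurkb, Ccna2, Ccnd1, Ccnd2, Ccne2, Mcm4 and Rb1 were not in the table. A CHR word was in 45.5% of the genes' windows and in 27.6% of all 32851 windows. CCAAT was in 69.7% of the genes' windows and in 37.4% of all windows. Both together were in 39.4% of the genes' windows, against 10.7% of all, and the 13 genes with both were Aurka, Ccnb1, Ccnb2, Cdc20, Cdc45, Cdk1, Cdkn1b, Mcm2, Mcm5, Mki67, Plk1, Rrm2 and Top2a. An E2F word was in 21.2% of the genes' windows and in 2.26% of all windows. By role, 6 of the 7 mitosis windows had a CHR word, 6 had CCAAT and none had an E2F word. Of the 11 replication windows 4 had a CHR word (Cdc45, Mcm2, Mcm5 and Rrm2), 10 had CCAAT and 5 had an E2F word (Cdc6, Mcm3, Mcm5, Mcm6 and Mcm7). The other genes with an E2F word were Cdk1 and Cdk2. Every window of Cdc6, Cdk6, Cdkn2c, E2f1 and Mcm7 lay wholly inside the annotated span of its gene. For E2f1, on the minus strand, the window reached 154569676 and the gene 154569892. Bases upstream of these genes were therefore not searched, and a missing word there says nothing about them. A match is a description of these letters, not a site, and these shares carry no test.

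**Figure D2:**
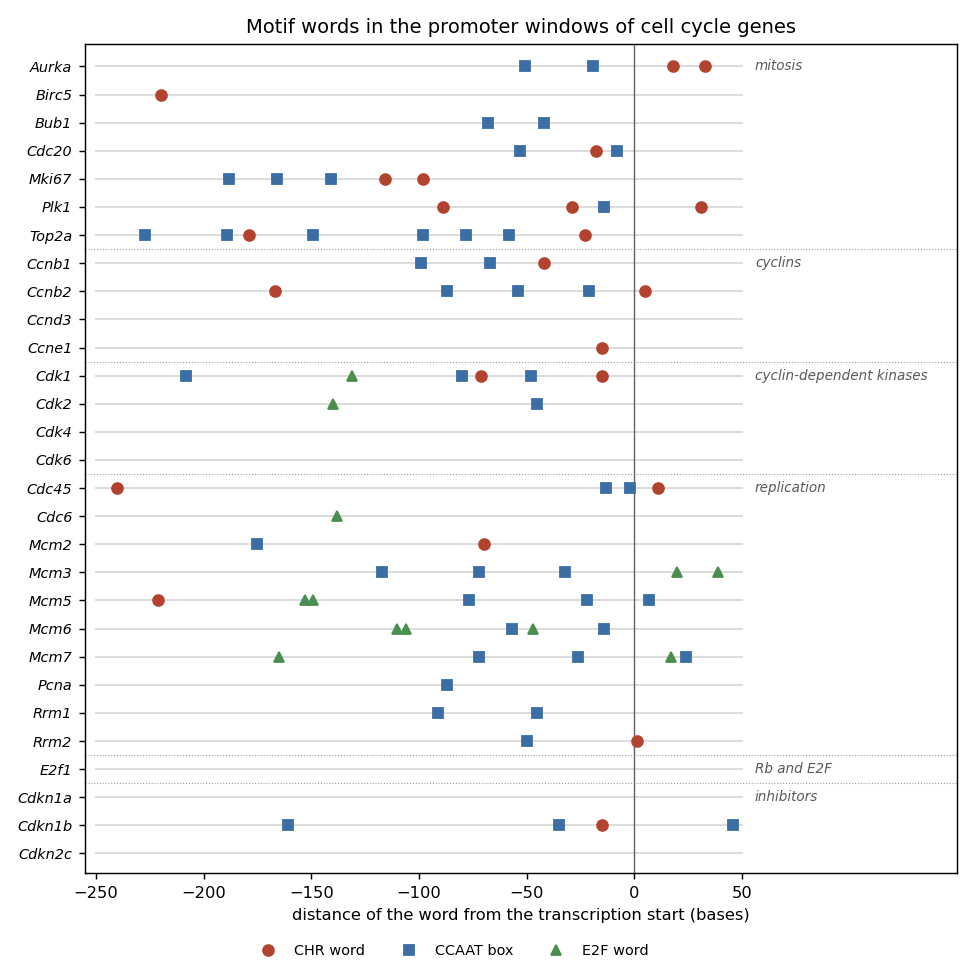
First base of each motif word relative to the transcription start (0, vertical line) in the first RefSeq window of each of 29 genes, grouped by role, with CHR words as circles, CCAAT as squares and E2F words as triangles. Triangles stand in replication and kinase promoters and in none of the 7 mitosis promoters, and most CCAAT boxes lie within 100 bases before the start.

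The D cyclins, the regulatory partners of CDK4 and CDK6, had a higher summed level than the other cyclins in both libraries. Ccnd2 (chr6:127125162-127152193) had 48.2 nuclear TPM in replicate 2 and 56.5 in replicate 1, from 2011 and 730 counts. Ccnd1 (chr7:144929931-144939925) had 25.7 in replicate 2 and 28.5 in replicate 1, from 691 and 237 counts. By counts per effective length, Ccnd2 was 1.87-fold above Ccnd1 in replicate 2 (95% interval 1.72 to 2.05) and 1.98-fold above it in replicate 1 (1.71 to 2.31). The mean log2 ratio of 0.95 was 0.43 once replicate 1 was adjusted for the GC content of transcripts. Replicate 2 is not changed by that adjustment and stayed at 0.906, so no lead of Ccnd2 was left in replicate 1. Ccnd3 did not hold its place: it had 62.4 nuclear TPM and 777 counts in replicate 2, the highest of the cyclins, and 5.68 nuclear TPM from 15 counts in replicate 1. Ccnd3 was 2.43-fold above Ccnd1 in replicate 2 (2.19 to 2.69) and 0.2 of it in replicate 1 (0.11 to 0.336), so which of the 3 D cyclins led was not settled by these libraries.

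Of the later cyclins, Ccne2 alone passed 2 nuclear TPM in a library. Ccne2, a cyclin E that partners CDK2 at the start of replication, had 1.89 nuclear TPM in replicate 2 and 13.0 in replicate 1, from 39 and 83 counts. Ccne1, the other cyclin E, had 1.18 nuclear TPM and 13 counts in replicate 2 and no count in replicate 1. Its ratio to Ccne2 was 0.622 in replicate 2, with an interval of 0.305 to 1.19 that includes 1, and in replicate 1 it had no count against 83. Ccna2, the cyclin of S phase and G2, had 0.56 nuclear TPM from 12 counts in replicate 2 and 1.11 from 3 counts in replicate 1. The B cyclins, which drive entry into mitosis, had almost none: Ccnb1 had 1 count in each library, and Ccnb2 had 6 counts in replicate 2 and none in replicate 1. Per length, Ccnd1 was 45-fold above Ccna2 in replicate 2 (25.6 to 87.5) and 27.1-fold above it in replicate 1 (9.15 to 132.0), with a mean log2 ratio of 4.99, or 5.89 with the GC adjustment. Summed, the 3 D cyclins had 136.4 nuclear TPM in replicate 2 and 90.7 in replicate 1, and the 5 cyclins A, B and E had 4.37 and 14.4. The sums stood in the same order in both libraries, but single genes overlapped, since Ccne2 was above Ccnd3 in replicate 1.

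Of the kinases, Cdk4, the partner of D cyclins, was the highest. Cdk4 (chr10:127063534-127067920) had 103.6 nuclear TPM from 628 counts in replicate 2 and 16.1 from 36 counts in replicate 1. Cdk6, which has the same partners, had 3.53 nuclear TPM in replicate 2 and 4.02 in replicate 1, from 80 and 32 counts. Cdk4 was above Cdk6 in both libraries, by 29.3-fold per length in replicate 2 (23.2 to 37.5) and 3.96-fold in replicate 1 (2.39 to 6.58). The mean log2 ratio was 3.42, and 5.10 with replicate 1 adjusted for GC content. Much of that Cdk4 abundance was assigned to transcripts not classed as protein-coding, and its protein-coding transcripts had 33.3 nuclear TPM in replicate 2 and 4.29 in replicate 1. In replicate 1 the coding Cdk4 level was thus close to the 4.02 nuclear TPM of Cdk6, whose abundance was all on coding transcripts.

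Cdk2, the partner of cyclins E and A, had 11 nuclear TPM in replicate 2 and 4.29 in replicate 1, from 176 and 21 counts. Cdk1, the kinase of mitosis, had 1.18 nuclear TPM from 9 counts in replicate 2 and no count in replicate 1. Cdk2 was 9.27-fold above Cdk1 in replicate 2 (4.77 to 20.6) and in replicate 1 had 21 counts against none. The kinases of the first steps were thus measured in both libraries, and the kinase of mitosis in replicate 2 alone.

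The 3 inhibitors were all at 16.9 nuclear TPM or more in both libraries. Cdkn1b (chr6:134920401-134925513), which encodes p27 and holds CDK2 inactive in resting cells, had 34.2 nuclear TPM in replicate 2 and 145.0 in replicate 1, from 740 and 985 counts. Cdkn1a, which encodes p21, a target of p53, had 54.1 nuclear TPM in replicate 2 and 32.0 in replicate 1, from 674 and 129 counts. Cdkn2c, which encodes p18 and binds CDK4 and CDK6, had 16.9 nuclear TPM in replicate 2 and 17.3 in replicate 1. Cdkn1b stood above Cdkn2c in both libraries, by 2.02-fold in replicate 2 (1.69 to 2.44) and 8.37-fold in replicate 1 (6.15 to 11.7). Whether Cdkn1a or Cdkn1b was higher depended on the library, with ratios of 1.58 in replicate 2 (1.42 to 1.76) and 0.22 in replicate 1 (0.182 to 0.265).

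Rb1, the retinoblastoma protein that binds E2F factors, was far above E2f1, one of the activating E2F factors. Rb1 (chr14:73183673-73325822) had 15.6 nuclear TPM in replicate 2 and 86.7 in replicate 1, from 481 and 882 counts. E2f1 had 0.41 nuclear TPM in replicate 2 and 0.28 in replicate 1, from 8 and 2 counts. Per length Rb1 exceeded E2f1 by 37.5-fold in replicate 2 (18.9 to 87.5), and in replicate 1, where E2f1 rested on 2 counts, the ratio was 258.0 (71.3 to 2140.0). The mean log2 ratio was 6.42, and 3.52 with replicate 1 adjusted for GC content.

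The replication genes spanned a wide range. Pcna, the sliding clamp of DNA polymerases, which also serves DNA repair, had 59.5 nuclear TPM in replicate 2 and 138.3 in replicate 1, from 594.62 and 386.1 estimated counts. It was the one gene of the 36 whose count carried a deposited posterior SD above 0, of 0.81 in replicate 2 and 1.39 in replicate 1. Rrm1, the large subunit of ribonucleotide reductase, had 10.9 nuclear TPM in replicate 2 and 23.4 in replicate 1. Its partner Rrm2, the small subunit made mainly in S phase, had 1.71 in replicate 2 and 3.19 in replicate 1. The 2 subunits kept nearly the same ratio, with Rrm1 6.34-fold above Rrm2 in replicate 2 (4.24 to 9.85) and 7.34-fold in replicate 1 (4.2 to 14.0).

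The 6 subunits of the MCM helicase, which unwinds DNA at replication forks as a hexamer with equal parts of each, were not at equal RNA levels. In replicate 2 they ran from 2.71 nuclear TPM for Mcm5 through 4.32 for Mcm2, 5.63 for Mcm6, 6.68 for Mcm3 and 7.11 for Mcm4 to 14.8 for Mcm7, a 5.44-fold span over 66 to 203 counts. In replicate 1 they ran from 0.14 for Mcm5 through 0.69 for Mcm3, 0.97 for Mcm2, 6.37 for Mcm6 and 6.65 for Mcm7 to 11.4 for Mcm4, an 82.0-fold span over 1 to 91 counts. Mcm5 was lowest in both libraries, and the other places changed. The places of Mcm3 and Mcm7 also rested on non-coding transcripts. On coding transcripts alone, Mcm3 had 3.45 nuclear TPM and Mcm7 10.2 in replicate 2. In replicate 1 coding Mcm7 had 4.43, under Mcm6 at 6.37. Mcm4 and Mcm6 had ratios between the libraries of 0.726 and 1.0, while Mcm2, Mcm3 and Mcm5 each had 7 or fewer counts in replicate 1. The hexamer subunits summed to 41.2 nuclear TPM in replicate 2 and 26.2 in replicate 1. Of the factors that load and start the helicase, Cdc45, part of the active helicase, had 4.04 nuclear TPM in replicate 2 and 1.25 in replicate 1, from 42 and 4 counts. Cdc6, which loads MCM onto origins in G1, had 6 counts in replicate 2 and none in replicate 1. Cdc45 exceeded Cdc6 by 14.5-fold in replicate 2 (6.15 to 41.8), and in replicate 1 the counts were 4 and none. Cdc45 lay above Mcm5 in both libraries.

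The 8 mitosis genes together had 90 counts in replicate 2, against 38 in replicate 1. Their sum was 4.04 nuclear TPM in replicate 2 and 4.85 in replicate 1, and averaged 4.45 ± 0.571 (SD, n = 2), which is less than the level of any single D cyclin in either library. In replicate 1 that margin was within counting error for Ccnd3, at 5.68 nuclear TPM from 15 counts (95% Poisson interval 8.4 to 24.7). None of the 8 mitosis genes reached 1 nuclear TPM in replicate 2, and in replicate 1 Top2a, Birc5 and Bub1 did so from 17, 2 and 2 counts. Mki67, which encodes the proliferation marker Ki-67, had 0.49 nuclear TPM in replicate 2 and 0.69 in replicate 1, from 36 counts (95% Poisson interval 25.2 to 49.8) and 17 counts (9.9 to 27.2). Top2a, the topoisomerase that untangles chromosomes, had 0.59 nuclear TPM in replicate 2 and 1.39 in replicate 1, from 19 and 17 counts. These were the most counted of the 8, and the ratio of Mki67 to Top2a was 0.82 in replicate 2 (0.458 to 1.51) and 0.509 in replicate 1 (0.244 to 1.06), with both intervals including 1.

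The kinases and checkpoint genes of mitosis had 10 counts or fewer. Cdc20, an activator of the anaphase-promoting complex, and Plk1, a kinase of spindle formation, had 10 counts each in replicate 2 and none in replicate 1. Aurka, the kinase of centrosomes, had 8 counts in replicate 2 and none in replicate 1, and Aurkb, the kinase of the chromosomal passenger complex, had 2 and none. Birc5 (survivin), of the same complex as Aurkb, had 5 counts in replicate 2 and 2 in replicate 1. Bub1, a spindle checkpoint kinase, was the single gene of the 36 with no count in replicate 2, and had 2 counts in replicate 1. Without the filter on low counts, Cdc20 and Plk1 each had an adjusted p of 0.112 (edgeR's exact binomial test) between the libraries, so no difference was detectable at this depth.

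A further 138 genes of the cycle in 6 lists were read in the same way, and mitosis genes had the lowest share of detected genes among the 6 lists in both libraries. Of 42 other replication genes, 35 reached 1 nuclear TPM in replicate 2 and 31 in replicate 1. By the mean over the libraries, which need not lead in each, the highest were Orc4 (36.3 and 349.8 nuclear TPM), Gmnn (84.0 and 118.0), Orc3 (37.3 and 112.5) and Rpa1 (52.7 and 48.5). Orc4 and Orc3 are subunits of the origin recognition complex, Gmnn encodes geminin, which blocks licensing, and Rpa1 binds single-stranded DNA. Of 48 other mitosis genes, 14 reached it in replicate 2 and 24 in replicate 1, with 13 in both. That 13 depended on the threshold, and was 24 at 0.5 nuclear TPM, 7 at 2 nuclear TPM and 30 with the posterior mean TPM. The highest by the mean were Pttg1, which encodes securin, at 258.2 and 117.1 nuclear TPM, Smc4, a condensin subunit, at 12.4 and 81.9, Cenpa, the centromeric histone, at 46.6 and 27.7, and Bub3, a checkpoint protein, at 28.1 and 16.9. Of the 13 subunits and activators of the anaphase-promoting complex, which works in resting cells too, 13 reached it in replicate 2 and 12 in replicate 1. Anapc13 had the highest mean, with 229.4 nuclear TPM in replicate 2 and 19.9 in replicate 1, where Anapc4 was the highest. Anapc5 had 142.9 and 83.7, Anapc4 had 47.6 and 106.7, and Cdc26 had 61.6 and 67.3.

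Restraining genes were also present. Of 7 other inhibitors and pocket proteins, 4 reached 1 nuclear TPM in both libraries: Rbl2, which encodes p130, the pocket protein of DREAM, at 32.4 nuclear TPM in replicate 2 and 74.8 in replicate 1, Cdkn1c (p57) at 18.8 and 43.1, Cdkn2d (p19) at 22.6 and 6.65, and Rbl1 (p107) at 2.15 and 6.65. Of 14 other E2F and DREAM genes, 11 reached it in each library and 10 in both. E2f6, a repressing E2F factor, had the highest mean, with 79.5 nuclear TPM in replicate 2 and 166.5 in replicate 1. The next by the mean were Rbbp4 and Lin52, subunits of the MuvB core, at 40.8 and 172.1 and at 14.7 and 31.9, and the E2F partner Tfdp2 at 50.8 and 159.2. Of 14 checkpoint genes 14 reached it in replicate 2 and 12 in replicate 1, and Ccng1, a target of p53, was the highest gene of the 6 lists at 538.0 and 2375 nuclear TPM. Mdm2, which degrades p53, had 42.4 nuclear TPM in replicate 2 and 88.9 in replicate 1, Btg2 had 43.5 and 24.9, and Ccng2 had 15.1 and 51.8. Over the 138 genes, 91 reached it in replicate 2, 96 in replicate 1 and 82 in both.

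**Figure D3:**
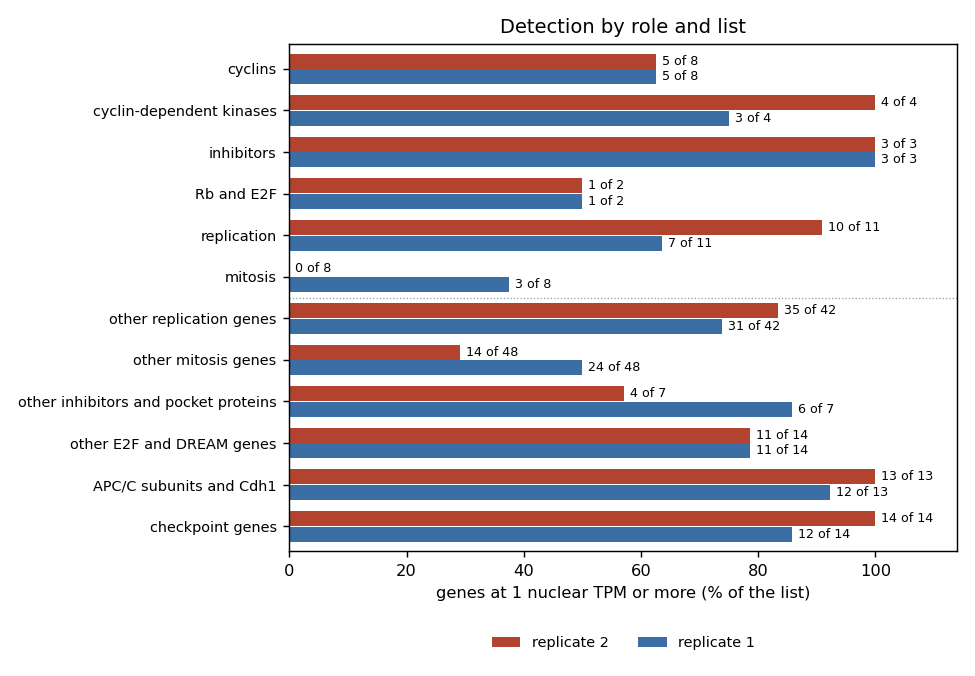
Share of the genes of each role (above the dotted line) and of each further list (under it) at 1 nuclear TPM or more, in percent, in replicate 2 and replicate 1, with the counts written beside the bars. The mitosis genes reached it in 0 of 8 and 3 of 8 cases, and the other mitosis genes in 14 of 48 and 24 of 48, the lowest shares of the plot in replicate 2.

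The libraries of the same heart disagreed on many of these genes by more than counting error. The 13182 genes whose counts summed to 20 or more were compared by edgeR's two-sided exact binomial test with Benjamini-Hochberg adjustment, and a gene was called where the adjusted p was under 0.05 and the ratio 2-fold or more. The test compares these libraries, not conditions, and covers counting error only. Among all genes tested 38.4% were called higher in replicate 2 and 27.2% lower. Of the 36 genes 23 could be tested, and the other 13 had 15 counts or fewer over both libraries. In replicate 2, 8 of the 23 were called higher (34.8%) and 4 lower (17.4%). With 23 genes these shares were not tested against those of all genes, and no difference from them is claimed. The median log2 ratio of replicate 2 over replicate 1 was -0.009 for the 23 genes and 0.213 for all genes tested.

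The 8 genes higher in replicate 2 were Ccnd3, Mcm5, Cdk4, Mcm3, Mcm7, Mcm2, Cdc45 and Cdk2, with log2 ratios of 4.18 down to 1.57. Ccnd3 was 18.7-fold higher in replicate 2 (95% interval 11.3 to 33.6, adjusted p = 6.79e-81, edgeR), from 777 counts in replicate 2 and 15 in replicate 1. Cdk4 was 6.3-fold higher (4.5 to 9.07), and Mcm7 5.23-fold (3.05 to 9.74). For Mcm5 the fold of 23.8 rested on 1 count in replicate 1 and had an interval of 4.13 to 955.0. The 4 genes lower in replicate 2 were Ccne2, Rb1, Cdkn1b and Top2a. Rb1 was 0.197 of its replicate 1 level (0.176 to 0.22, adjusted p = 1.39e-189, edgeR), Ccne2 was 0.17 of it (0.113 to 0.251), and Cdkn1b 0.271 (0.246 to 0.299). Top2a, with 19 counts in replicate 2 and 17 in replicate 1, was 0.403 of it (0.199 to 0.826), and lost its call when a coefficient of variation of 0.2 between samples was assumed (adjusted p = 0.0904, edgeR).

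For the other 11 genes no difference was called. Ccnd2 had a ratio of 0.994 (0.913 to 1.08), Mcm6 of 1.0 (0.704 to 1.45), Ccnd1 of 1.05 (0.907 to 1.22) and Cdk6 of 0.902 (0.592 to 1.41). Mki67 had a ratio of 0.764 (0.418 to 1.45), an interval too wide to exclude a change of 2-fold. Cdkn1a at 1.89-fold, Pcna at 0.556 and Rrm1 at 0.541 differed beyond counting error (edgeR adjusted p = 3.84e-12, 5.26e-18 and 3.94e-11), as did Mcm4 at 0.726 (adjusted p = 0.0168, edgeR), but by less than 2-fold. Of 15 pairs of related genes, 10 had the same gene ahead in both libraries by value. The gene ahead changed for Ccnd3 and Ccnd1, Ccnd2 and Ccnd3, and Cdkn1a and Cdkn1b. Ccnb2 and Ccnb1 had no count and 1 count in replicate 1, and Aurkb and Aurka had none there, so these pairs gave no order in that library.

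The direction of the difference moved with base composition. Across the 23 tested genes the log2 ratio and the GC content of the transcripts had Pearson's r of 0.877 and Spearman's rho of 0.929, and across the 13155 tested genes with a GC value r was 0.848 and rho 0.898. These are correlations across genes in the same pair of libraries, so the points are not independent. The 8 genes higher in replicate 2 had a median GC content of 52.2% (48.8 to 58.9), the 4 lower had 42.7% (35.1 to 44.9), and the 11 not called had 46.6% (44.4 to 54.6). With the median ratio at each GC content subtracted, 10.2% of all genes were called higher in replicate 2 and 10.9% lower. Then 4 of the 23 were called higher (Mcm5, Cdc45, Cdk2 and Mcm3, log2 ratios 2.87, 1.91, 1.71 and 1.68) and 1 lower (Cdkn1a, -1.26). Of the 12 first called, 4 were called in the same direction again. Ccnd3 then had a log2 ratio of -0.08 and Cdk4 of -0.02.

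**Figure D4:**
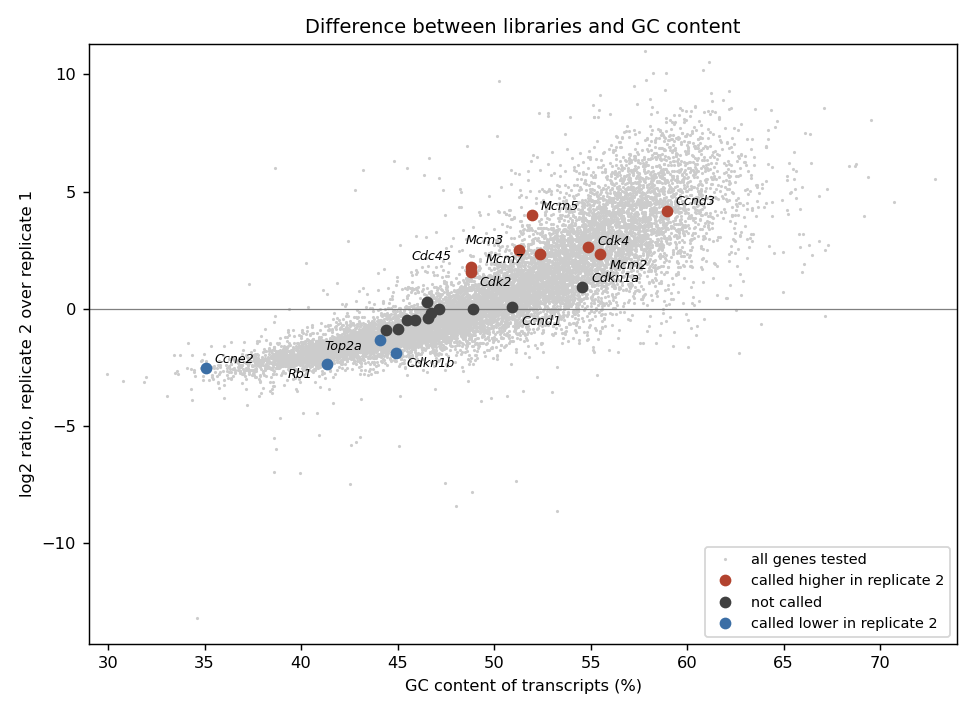
Log2 ratio of replicate 2 over replicate 1 against the GC content of a gene's transcripts in percent, with all tested genes as grey dots and the 23 tested cell cycle genes as large points coloured by their call. The 12 called genes and 2 of the others are named, and Ccne2 at 35.1% GC lies at the low end of the trend and Ccnd3 at 58.9% at the high end.

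Transcripts not classed as protein-coding took a share of several genes. Of the 36 genes, 14 had at least 20 counts in each library, and all 14 were led by the same transcript in both, 3 of them because they have 1 transcript. Cdk4 was the exception to a coding lead: its leading transcript was the retained-intron Cdk4-209, with 21.2% of abundance in replicate 2 and 54.0% in replicate 1. This transcript is 468 bases long and had 46.46 counts in replicate 2 and 5.73 in replicate 1, so few reads carried a large share per length. The coding transcript Cdk4-201 had more counts (183.09 and 14.74) and a lower share (12.5% and 20.9%). In all, transcripts of Cdk4 not classed as coding held 67.8% of its abundance in replicate 2 and 72.8% in replicate 1, and 50.6% and 52.6% of its counts.

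For Pcna, Cdkn1b and Cdkn1a the lead was a coding transcript. Pcna-201 held 99.0% of Pcna in replicate 2 and 83.2% in replicate 1, where the processed transcript Pcna-203 took 11.4%. Cdkn1b-201 held 69.5% and 67.8% of Cdkn1b, with the rest on the longer Cdkn1b-202. Cdkn1a-201 held 93.1% of Cdkn1a in replicate 2 and all of it in replicate 1. Genes with fewer counts were less settled. Mcm7 was led by Mcm7-201 in replicate 2 (56%) and by the shorter Mcm7-204 in replicate 1 (42.2%, from 4.26 counts). Ccnd3-205 held 83.9% of Ccnd3 in replicate 2 and 28.4% in replicate 1, where Ccnd3-219 took 48.4% from 0.98 counts. Retained-intron Mcm3-203 held 48.2% of Mcm3 in replicate 2 from 12.83 counts, and had none in replicate 1.

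**Figure D5:**
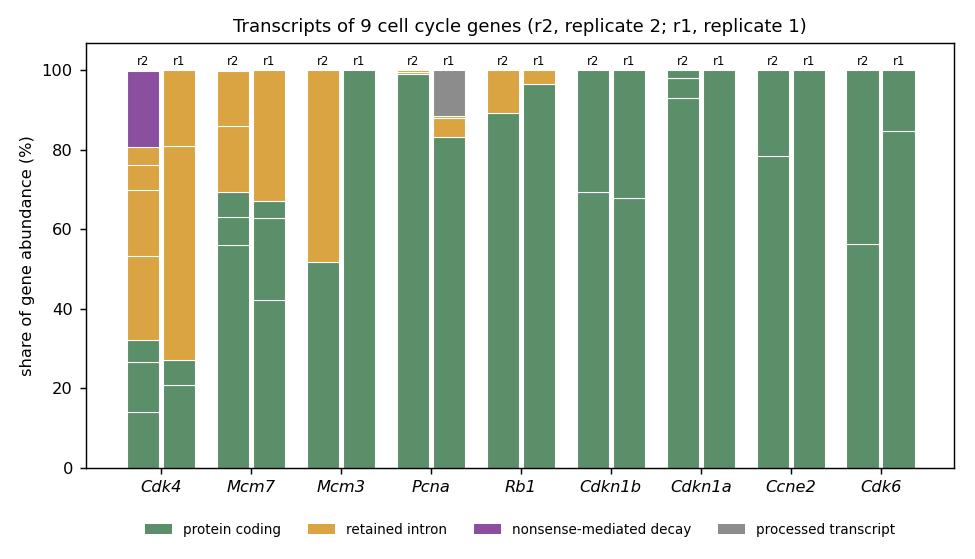
Share of each gene's abundance in percent carried by its transcripts, for 9 genes in replicate 2 (r2) and replicate 1 (r1), coloured by transcript class, with white lines between transcripts. Cdk4 is mostly retained-intron and nonsense-mediated decay transcripts in replicate 2 and retained-intron transcripts in replicate 1, while Cdkn1a, Cdkn1b, Ccne2 and Cdk6 are coding in both.

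Some of the genes share exons with a gene on the opposite strand, and no source states whether reads were counted by strand, so the reads of such partners cannot be told apart. The overlap covered 23.4% of the exon bases of Ccnd1 (with LTO1), 19.7% of Cdk4 (with Tspan31), 17.4% of Ccne2 (with Ints8), 12.5% of Ccna2 (with Exosc9), 8.11% of Rb1 (with Rcbtb2) and 7.25% of Mcm7 (with Ap4m1). Cdkn1a overlapped such a partner over 7.68% and Plk1 over 7.09% of exon bases, and overlaps from 0.547% to 5.96% were found for Ccnd2, Ccnd3, Cdc20, Cdc45, Cdk2 and Cdk6.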

How the data were processed

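Poly(A) RNA-seq of 1 heart was analysed from the gene and transcript tables of 2 libraries. Per the deposited file descriptions, the tables use assembly mm10 and annotation M4. No aligner, quantifier or use of strand is named in the sources used here. The deposited tables hold expected counts (estimated counts, which need not be whole), TPM and FPKM scaled by the authors per library, and for each transcript the percent of its gene's abundance. FPKM served only as an alternative for the summed levels by role. Deposited effective lengths served ratios between genes, and posterior means served alternatives.

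Identifiers were matched without version to annotation M21 (GRCm38), which named 42462 genes and gave coordinates (1-based), transcript classes and GC content. Mitochondrial genes and 11 nuclear copies (blastn 2.17.0, at least 95% identity over at least 90% of length) were left out of nuclear TPM. Counts were rounded and compared between libraries with edgeR 4.0.16 in R 4.3.3 (exact binomial test, TMM-scaled library sizes, 0.5 counts added to ratios). The test was tried on simulated counts with known changes. Intervals are 95%, exact binomial for ratios and exact Poisson for counts, and leave out all but counting error, because PCR copies of a molecule can be read more than once. The GC trend was the median ratio in 50 bins. Promoter windows are from RefSeq (GRCm38.p6). DESeq2 1.42.0 size factors, filters, other scalings, abundance estimates, pseudocounts and single libraries were tried as alternatives. Python 3.11.15, numpy 2.4.6, scipy 1.17.1, pandas 2.3.3 and matplotlib 3.10.9 were used.

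The 36 genes, the lists, the pairs and the rule for named genes were chosen with earlier results of these data known. The rule takes all 36 genes, both genes of each pair, the 4 highest genes of each further list, and the isoform genes of highest level or with a changed lead. The labels do not say that the libraries came from separate extractions, and both are of 1 animal. With 1 library on each side no spread between libraries could be estimated. The p-values therefore cover counting error only, apart from the one given under an assumed coefficient of variation.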

Additional observations from a re-analysis of the deposited data

How the results depend on the processing

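No paired analysis was possible because there is 1 group of 2 libraries. Values of members are log2 ratios of replicate 2 over replicate 1, less any shift in the median of all genes. The exception is removal of the GC trend, which brings that median from 0.213 to 0 and whose values are given unshifted. Posterior mean counts kept the direction and the call of all 23 tested genes, and DESeq2 size factors kept the call of all 23. A change of size factors moves all genes alike, so with the shift taken out no direction could turn. Before that step Ccnd1 went from 0.072 to -0.035 with DESeq2 size factors. Scaling by total counts, which include mitochondrial RNA, moved the median of all genes from 0.213 to 1.893; it then called 8670 genes higher and 139 lower, and 17 and 0 of the cell cycle genes. With the GC trend removed these were 1349 and 1443 genes, and 4 and 1 cell cycle genes. With at least 100 counts 17 cell cycle genes could be tested, and 5 were called higher. Cdc45, Mcm5 and Mcm3, called higher before, had too few counts for this filter.

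The sign changed for 13 genes with the GC trend removed and the values unshifted: Ccnd2 (0.39), Mcm2 (-0.46), Cdk4 (-0.024), Rrm2 (0.37), Mcm4 (0.48), Cdkn1a (-1.26), Mcm6 (0.14), Pcna (0.26), Rrm1 (0.34), Mki67 (0.30), Ccnd3 (-0.079), Cdk6 (0.49) and Ccnd1 (-0.52). The values of Cdk4 and Ccnd3 were too small to give a direction. With the shift taken out, Cdk4 and Ccnd3 would keep their sign, and Ccne2 and Top2a would turn. Ccnd2 and Mcm6 also turned with no filter (0.089 each) and with at least 100 counts (0.068 each). Mean log2 ratios of pairs turned for Ccnd3 over Ccnd1 with a pseudocount of 1 TPM (0.041) and with replicate 1 adjusted for GC content (1.38), as did Ccnd2 over Ccnd3 (-0.95) and Cdkn1a over Cdkn1b (0.99) with that adjustment. With each library alone these ranged from -2.28 to 1.28, -0.37 to 3.27 and -2.18 to 0.66, Ccnb2 over Ccnb1 from -1.06 to 1.51, and Aurkb over Aurka from -1.74 to 0.65, where the replicate 1 values of the last pairs rest on 1 count and on no count and measure nothing. The cause was not tested.

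Taking TPM as deposited, without rescaling, 9 of the 36 genes and 43 of the 138 reached 1 TPM in both libraries. Mean sums were then 31.3 for cyclins, 24.2 for kinases, 27.6 for inhibitors, 6.275 for Rb1 and E2f1, 29.9 for replication and 0.965 for mitosis genes. In nuclear TPM these sums were 123.0, 71.85, 149.8, 51.52, 154.9 and 4.45. With the posterior mean TPM, which is above 0 for genes with no count, 28 were detected and mitosis genes summed to 14.7. With protein-coding transcripts alone, an alternative chosen after seeing the data, mitosis genes summed to 3.63 and kinases to 30.82. Single libraries gave 22 to 23 and 91 to 96 genes. With at least 100 counts in each library 7 of 7 genes kept their leading transcript, fewer because fewer had the counts. With shares from the posterior mean TPM, Ccne2 alone of the 14 genes had different leads. These were the processed transcript Ccne2-205 in replicate 2 and the coding Ccne2-202 in replicate 1. In the last 150 bases of the promoter windows 3 genes held an E2F word, the window being shorter. In replicate 2, 3 of the 36 genes had 3 counts or fewer, against 14 in replicate 1; the parts of depth and of GC content in this were not tested.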

Other observations

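Several low levels rested on fractions of a read assigned to short or non-coding transcripts. Bub1 reached 1.66 nuclear TPM in replicate 1 from 2 counts, of which 0.91 were assigned to Bub1-205, a processed transcript of 438 bases that took 91.5% of the abundance. Its coding transcript had 1.09 counts and 0.14 nuclear TPM. The 1.11 nuclear TPM of Ccna2 in replicate 1 was 0.28 over coding transcripts alone, and the processed transcript Ccna2-204 took 77.6% from 1.46 counts. The single Ccnb1 count of replicate 2 was assigned to the retained-intron Ccnb1-204, and that of replicate 1 to the coding Ccnb1-202. Of the 3 mitosis genes at 1 nuclear TPM in replicate 1, Top2a and Birc5 kept 1.39 and 1.11 nuclear TPM on coding transcripts.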
